A study of Mus musculus with 2 samples.

Results

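Hox genes are homeobox genes that lie side by side in 4 clusters of the mouse genome, and each cluster borders long stretches of regulatory DNA. Members were taken by symbol (Hox, a letter from a to d and a number) among the protein-coding genes of the GENCODE M21 annotation, which gave 39 of 21668 genes with an annotated start site. The elements taken were all peaks and hotspots from 1 Mb before to 1 Mb after each cluster. These were 1657 of 209299 peaks and 1268 of 178464 hotspots in replicate 1, and 1497 of 219061 peaks and 1273 of 188815 hotspots in replicate 2.

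The study mapped open chromatin by DNase-seq, in which the nuclease DNase I cuts DNA that is not wrapped tightly in nucleosomes. Peaks are sites of 150 bp, and hotspots are wider stretches enriched for cuts. The single group was healthy B6NCrl embryos of age 11.5 days, from which the facial prominences, the embryonic swellings that become the face, were taken with males and females pooled. It had 2 libraries, labelled biological replicates 1 and 2, from separate biosamples that carry the same donor label, so that the spread between them may be partly technical. No treatment or genotype was compared. With 2 libraries of 1 group no test between conditions was possible, and the libraries are described side by side.

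Hox proteins are transcription factors that give cells their position along the head-to-tail axis. Within a cluster the genes are numbered by paralog group: low-numbered groups act in the hindbrain and pharyngeal arches, and high-numbered groups act in the posterior trunk, limbs and tail. The cells that build most of the face come from Hox-negative neural crest, and silent Hox clusters are kept closed by Polycomb proteins. CTCF, a DNA-binding protein that marks borders between chromatin domains, is known to bind at several places between Hox genes.

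The clusters were Hoxa (chr6:52155590-52260880, 11 genes), Hoxb (chr11:96194316-96368256, 10 genes), Hoxc (chr15:102921103-103036852, 9 genes) and Hoxd (chr2:74668310-74765142, 9 genes), all on build mm10. The flank next to the lowest paralog group of a cluster is called the low-number flank below, and the other the high-number flank. The name of desert fitted some flanks only. The Hoxd flanks held 3 protein-coding genes on the low-number side and 5 on the high-number side, and the Hoxa flanks held 5 and 4. The Hoxb flanks held 21 on each side, and the Hoxc flanks held 16 and 32, so that these were gene-rich.

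Strength is a whole-number value that the authors deposited for each peak, and it is given here as a percentile rank within its library, where the strongest peaks approach a rank of 100. A peak is called shared where a peak of the other library overlapped it by 75 bp or more. Some of the strongest shared peaks inside the clusters are printed first, because the map of the clusters rests on a small number of such narrow sites. They are plus-strand sequences of mm10 read 5′ to 3′. Capitals mark the letters AGGNGGCG, which resemble the end of the CTCF recognition sequence and were noticed when these peaks were read. The first site lay 281 bp upstream of the Hoxb5 start (chr11:96303156-96303305), the second in an intron 3016 bp from the Hoxc8 start (chr15:102987516-102987665) and the last in an intron 4004 bp from the nearest Hoxd3 start (chr2:74715856-74716005).
Hoxb5 site: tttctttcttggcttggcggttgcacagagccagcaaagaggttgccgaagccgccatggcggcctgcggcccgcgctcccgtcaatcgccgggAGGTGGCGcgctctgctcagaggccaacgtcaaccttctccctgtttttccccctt
Hoxc8 site: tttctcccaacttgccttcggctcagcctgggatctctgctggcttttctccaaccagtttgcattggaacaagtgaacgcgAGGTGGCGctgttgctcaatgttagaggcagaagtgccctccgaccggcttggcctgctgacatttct
Hoxd3 site: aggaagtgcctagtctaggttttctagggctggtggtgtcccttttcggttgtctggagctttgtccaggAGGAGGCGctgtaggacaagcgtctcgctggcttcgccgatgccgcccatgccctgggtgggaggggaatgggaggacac

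The remaining sites shown carry other sequence matches or stand for a region. The Hoxb8 site (chr11:96278896-96279045), 2934 bp from the nearest Hoxb8 start and intergenic, was the only shared interior peak with the full CTCF core, which is in capitals. At the Hoxa4 promoter capitals mark TGATNNAT on either strand, the letters bound by Pbx and Hox proteins together. The Hoxa4 peak (chr6:52191896-52192045) lay 218 bp from the start. The strongest shared peak of Hoxa, 323 bp from a Hoxa10 start, lies in transcribed untranslated sequence and is not printed. The Hoxa3 site (chr6:52211656-52211805), in an intron 1384 bp from the Hoxa3 start, was the next strongest of that cluster, and none of these letters was found in it. The last sequence is the strongest shared distal peak of all 8 flanks (chr6:51178596-51178745), intergenic and 253999 bp from Nfe2l3, with each CG dinucleotide in capitals.
Hoxb8 site: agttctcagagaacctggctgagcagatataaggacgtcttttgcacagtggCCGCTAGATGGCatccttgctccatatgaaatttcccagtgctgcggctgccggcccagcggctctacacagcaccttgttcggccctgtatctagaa
Hoxa4 promoter: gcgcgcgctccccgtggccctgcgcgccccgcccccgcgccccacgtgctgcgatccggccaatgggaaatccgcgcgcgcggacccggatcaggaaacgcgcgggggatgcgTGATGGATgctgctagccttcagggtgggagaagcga
Hoxa3 site: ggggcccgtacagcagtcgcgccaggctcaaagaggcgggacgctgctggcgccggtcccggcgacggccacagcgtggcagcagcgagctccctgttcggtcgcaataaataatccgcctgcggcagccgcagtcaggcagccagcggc
Hoxa low-number flank site: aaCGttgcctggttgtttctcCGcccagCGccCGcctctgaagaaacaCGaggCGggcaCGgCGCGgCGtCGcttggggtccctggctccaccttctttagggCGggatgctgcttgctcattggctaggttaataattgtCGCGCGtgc

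A promoter peak, with its centre within 1 kb of a start site, was found at 22 Hox genes in replicate 1 and 21 in replicate 2. Over all protein-coding genes the shares were 67.3% and 70.8%. A shared promoter peak stood at 15 of the 39 genes (38.5%, exact 95% interval 23.4 to 55.4), and over all protein-coding genes at 64.2%. The exact intervals given here reflect counting error alone, since neighbouring genes and peaks are not replicates. A further 12 genes had no promoter peak in either library: Hoxa3, Hoxa6, Hoxa9, Hoxa11, Hoxb1, Hoxc6, Hoxc9, Hoxc11, Hoxd4, Hoxd11, Hoxd12 and Hoxd13. Hoxa7 had 2 peaks in each library at places that did not match. The remaining 11 genes had a peak in 1 library. These were Hoxb3, Hoxb6, Hoxb7, Hoxb9, Hoxc12 and Hoxd3 in replicate 1, and Hoxb8, Hoxc8, Hoxd8, Hoxd9 and Hoxd10 in replicate 2. In a bulk tissue, openness in fewer cells and less cutting per cell cannot be told apart.

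**Figure D1:**
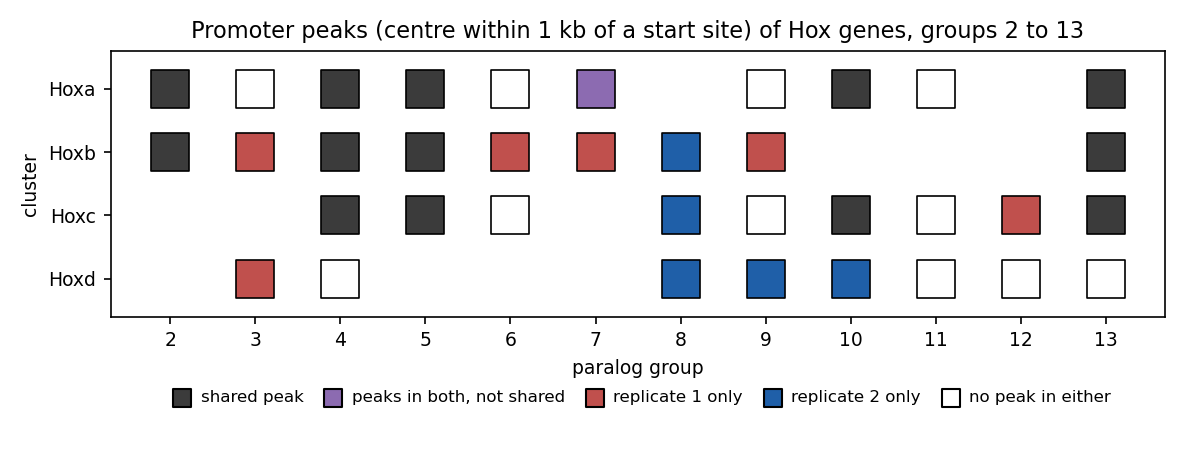
Each square is a Hox gene of paralog groups 2 to 13, placed by cluster (vertical axis) and paralog group (horizontal axis) and coloured by the libraries in which its promoter had a peak. Shared promoters fill groups 2 and 5, groups 6 to 9 hold none, and the replicate 2 only promoters lie in groups 8 to 10.

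Shared promoter peaks were unevenly spread over the paralog groups. Groups 2 and 5 had a shared promoter peak at every gene (2 of 2 and 3 of 3), and groups 4 and 13 at 3 of 4 each. Group 10 had one at 2 of 3. No gene of groups 3, 6, 7, 8, 9, 11 and 12 had a shared promoter peak. In group 8, each of the 3 genes had a promoter peak in replicate 2 and none in replicate 1.

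Among the low-numbered groups, genes that pattern the hindbrain and the second pharyngeal arch had shared promoter peaks. Hoxa2, which gives the second arch its identity, had a shared peak 500 bp from its start with ranks of 88.5 and 70.6. Its promoter coverage was 53.1% in replicate 1 and 29.3% in replicate 2. Hoxb2, its paralog, had a weaker shared peak with ranks of 70.1 and 69.8, 140 bp from the start. At Hoxd1 the shared peak lay 49 bp from the start and had ranks of 92.7 and 90.8. Hoxb1, the marker of the fourth hindbrain segment, had no peak within 4259 bp in replicate 1 or 8719 bp in replicate 2.

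Groups 4 and 5, which act in the caudal hindbrain, neck and thorax, had narrow shared promoter peaks. The Hoxa4 peak had ranks of 92.5 and 94.1, and the Hoxb4 peak, 404 bp from the start, had ranks of 87.1 and 88.7. The Hoxc4 peak was weaker, with ranks of 65.8 and 63.3. Hotspots covered 9.10% of the Hoxa4 promoter in replicate 1 and 15.3% in replicate 2, against 15.2% and 14.2% at Hoxb4. Hoxa5, which is needed for lung and trachea, differed more: coverage was 72.0% in replicate 1, with 5 peaks, and 13.2% in replicate 2, with 1 peak. The Hoxb5 peak printed above had ranks of 95.8 and 93.2 in hotspots of 277 and 320 bp. The Hoxc5 peak, 104 bp from the start, had ranks of 82.7 and 67.2. In replicate 2, each of these genes except Hoxc5 had a single promoter peak.

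The high-numbered groups were open at 5 genes in both libraries. Hoxa10 and Hoxc10, which pattern the lumbar spine and hindlimb, had shared peaks of ranks 95.4 and 96.0 and of ranks 94.6 and 93.4, the strongest promoter peaks of their clusters. The coverage of these promoters stayed low, at 7.32% and 8.42% for Hoxa10 and at 12.8% and 15.5% for Hoxc10. Hoxa13, a gene of digits and genital tract, had 5 promoter peaks in replicate 1 and 2 in replicate 2, with coverage of 74.3% and 19.8%. Hoxc13, which acts in hair and nail, had coverage of 90.5% in replicate 1 and 33.7% in replicate 2, the highest of all Hox promoters in replicate 1. Its shared peak had ranks of 88.5 and 89.1. Hoxb13, a gene of the tail, had a shared peak with ranks of 82.7 and 82.9, 65 bp from its start. Hoxd13, the paralog that patterns digits, had no peak within 2339 bp in either library.

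Some promoters differed sharply between the libraries. Hoxd3, a gene of the neck vertebrae, had 12 peaks near its 3 start sites in replicate 1 and none in replicate 2, and coverage was 60.7% against none. In the opposite direction, Hoxd10 had a replicate 2 peak of rank 93.4 at 133 bp from its start, while the nearest replicate 1 peak was 5433 bp away. Hoxd8 and Hoxd9 had replicate 2 peaks of ranks 88.7 and 86.7, and the nearest replicate 1 peaks were 2224 and 4664 bp away. Over the 39 genes, coverage was higher in replicate 1 at 14 genes and higher in replicate 2 at 13, with 12 at 0 in both. The median coverage was 5.05% in replicate 1 and 2.50% in replicate 2. The number of promoters with more coverage was thus similar in both libraries.

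The cluster interiors, from the first to the last base of the Hox genes, did lean to replicate 1. They held 264 peaks in replicate 1 and 104 in replicate 2, a ratio of 2.54 over 492 kb, while the ratio was 1.00 in the flanks and 0.955 over all chromosomes analysed. Density was 537 peaks per Mb in replicate 1 and 211 in replicate 2 (mean 374 ± 230, SD, n = 2), against 81.8 and 85.6 over the chromosomes. The excess was present in each cluster. Hoxa had 91 peaks against 33, Hoxb 79 against 42, Hoxc 44 against 17 and Hoxd 50 against 12. The ratio was highest in Hoxd, at 4.17, and lowest in Hoxb, at 1.88. Both libraries thus had more peaks per Mb in each interior than the chromosomes as a whole, and replicate 1 was the higher one in every cluster. In replicate 1 each interior was also denser than both its flanks, but in replicate 2 this held for Hoxa and Hoxb only. In replicate 2 Hoxd had 124 per Mb, against 152 in its low-number and 137 in its high-number flank. Hoxc had 147, against 124 and 221.

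**Figure D2:**
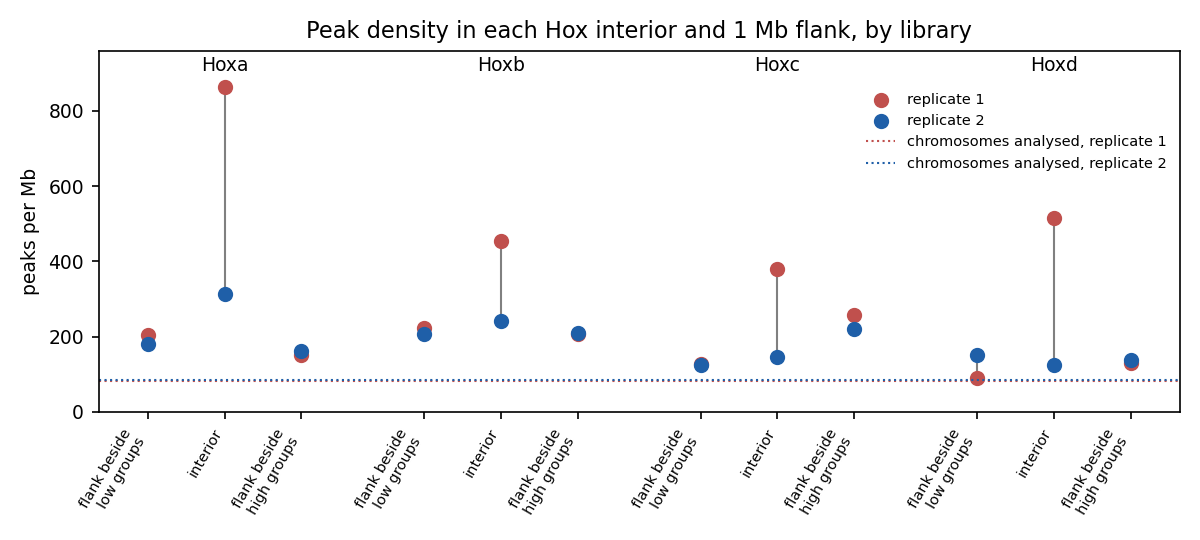
Points show the peaks per Mb of replicate 1 (red) and replicate 2 (blue) in the interior and both 1 Mb flanks of each cluster, and dotted lines show the density over the chromosomes analysed. The libraries are far apart in the interiors (864 and 313 in Hoxa) and close together in most flanks, with the Hoxd low-number flank higher in replicate 2.

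The excess was uneven along the clusters. Assigned to the nearest Hox start, the peaks near groups 1 to 4 numbered 149 in replicate 1 and 47 in replicate 2, those near groups 5 to 8 numbered 41 and 19, and those near groups 9 to 13 numbered 74 and 38. In Hoxd 46 of the 50 replicate 1 peaks lay near groups 1 to 4, where replicate 2 had 5. In Hoxc 25 replicate 1 peaks lay near Hoxc4, against 2 in replicate 2. In Hoxb the excess was instead largest in number at the other end, with 48 peaks against 22 near groups 9 to 13. Near groups 5 to 8 of Hoxc the direction was reversed, with 5 peaks against 8. In Hoxd it was reversed near groups 5 to 8, with 1 against 2, and near groups 9 to 13, with 3 against 5. As a yardstick chosen after these values were seen, 100 kb windows of the genome with 20 or more peaks in all were counted. All 5 windows with at least 50 kb inside a cluster had at least 2 times as many peaks in replicate 1, against 16.4% of windows genome-wide, so that such a lean was not rare elsewhere.

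Few of the replicate 1 interior peaks were shared. Of the 264, 47 (17.8%, exact 95% interval 13.4 to 23.0) had a match in replicate 2, against 41.1% over all replicate 1 peaks and 45.7% (43.0 to 48.3) in the flanks. Of the 104 replicate 2 peaks, 47 (45.2%, 35.4 to 55.3) were shared, against 38.5% over all. The low replicate 1 share follows in part from the counts, since 104 replicate 2 peaks could match only some of the 264. The shared peaks numbered 16 in Hoxa, 18 in Hoxb, 6 in Hoxc and 7 in Hoxd. The remaining 217 replicate 1 peaks had, by the definition of shared, no matching peak in replicate 2.

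The shared percentage was then set out by class of rank, because weak peaks were matched less often in the whole genome. Of 22 replicate 1 interior peaks of rank 90 or more, 20 were shared (90.9%, 70.8 to 98.9), against 94.5% of such peaks over all chromosomes. Of 217 with ranks from 50 to under 90, 27 were shared (12.4%, 8.36 to 17.6), against 67.6% over all chromosomes and 56.7% in the flanks. None of the 25 below rank 50 was shared, against 9.79% over all chromosomes, a share that the exact 95% interval of 0 of 25 includes. In replicate 2, 18 of 19 interior peaks of rank 90 or more were shared (94.7%, against 93.2% over all), and 26 of 59 with ranks from 50 to under 90 were (44.1%, 31.2 to 57.6, against 57.3% over all). The smaller number of replicate 2 interior peaks limits the replicate 1 shares of these classes too. The unshared replicate 1 peaks had a median rank of 70.1, compared with 46.8 for unshared replicate 1 peaks of the flanks. The interiors thus held a small set of strong sites found in both libraries and a larger set of middle-ranked sites found in replicate 1.

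**Figure D3:**
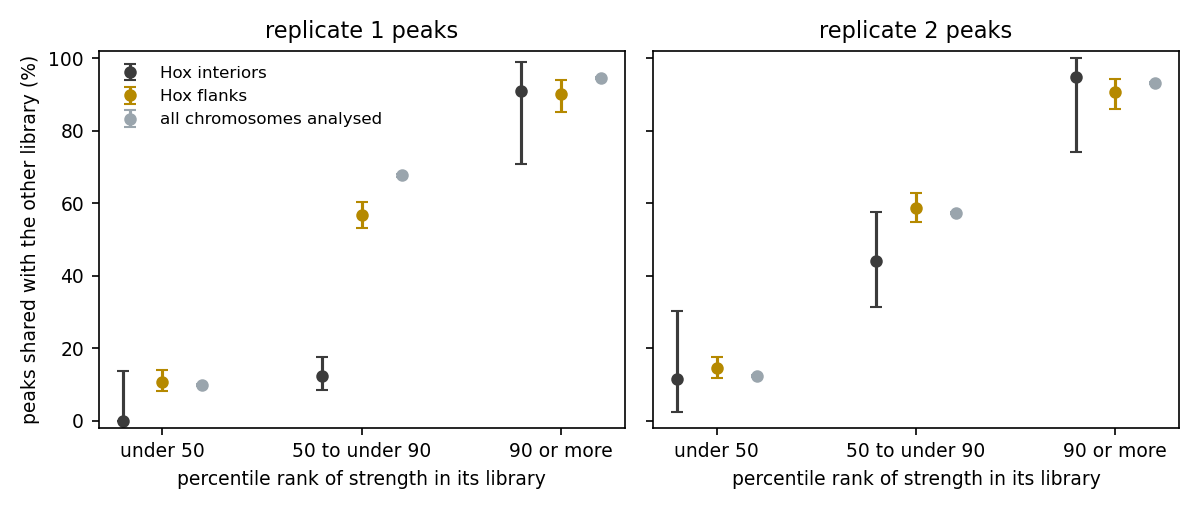
Points give the percentage of peaks shared with the other library, by class of percentile rank of strength, for Hox interiors, Hox flanks and all chromosomes analysed, and bars are exact 95% intervals. Replicate 1 interior peaks of rank 50 to under 90 stand at 12.4%, far below the 67.6% of all such peaks, while those of rank 90 or more stand at 90.9%.

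Both sets of interior peaks also differed in sequence. The 20 shared peaks of rank 90 or more in replicate 1 had a median GC content of 61.6% and a median observed/expected CpG ratio of 0.804. The 47 shared peaks together had medians of 54.7% and 0.770. The 217 found in replicate 1 alone had medians of 49.3% and 0.321, and the 57 found in replicate 2 alone had 56.0% and 0.727. Promoter peaks made up 27.7% of the shared, 20.3% of the replicate 1 only and 19.3% of the replicate 2 only peaks. Replicate 1 only sites were thus the poorest in CpG of these sets.

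The letters in capitals were then counted in the sets of peaks. AGGNGGCG was noticed in printed sites that are among the shared peaks counted here, so its counts describe these peaks and are no independent support. AGGNGGCG, searched on both strands, was in 10 of the 47 shared interior peaks (21.3%, 10.7 to 35.7), against 9.43% of all shared peaks in the genome. Among those of rank 90 or more in replicate 1 it was in 6 of 20 (30.0%, 11.9 to 54.3), against 19.5% of all shared peaks of that rank, a share within the interval. Of the replicate 1 only interior peaks, 2 of 217 held it (0.922%, 0.112 to 3.29), and of the replicate 2 only peaks 3 of 57 (5.26%, 1.10 to 14.6). The share of each motif over all unshared peaks of the genome is not given here. Motif counts in the peaks of 1 library alone therefore cannot be called high or low, or particular to the Hox interiors. The full CTCF core was in 1 of 47 (2.13%, 0.0539 to 11.3), against 7.83% of all shared peaks. TGATNNAT was in 2 of 47 (4.26%, against 3.64% of all shared peaks) and in 13 of the 217 replicate 1 only peaks (5.99%). TAATTA, a core bound by many homeodomain proteins, was in none of the 47 and in 2.97% of all shared peaks. TGACAG, bound by Meis proteins, was in 3 of the 47 (6.38%, against 9.89%), and the retinoic acid response element with a spacing of 5 was in none (0.112% of all shared peaks). GGGCGG, bound by Sp factors, was in 7 (14.9%, against 19.2%). The AGGNGGCG and CTCF core patterns can overlap. A match is a description of letters, and no binding was measured here.

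Hotspots covered 15.8% of the interiors in replicate 1 and 4.97% in replicate 2 (mean 10.4 ± 7.65%, SD, n = 2), while the flanks were covered at 5.43% and 5.54%. Hoxa was covered at 25.4% and 8.33%, Hoxb at 14.1% and 5.62%, Hoxc at 8.81% and 2.54% and Hoxd at 16.7% and 3.03%. Typical widths were close, with medians of 237 bp over 202 interior hotspots in replicate 1 and 224 bp over 100 in replicate 2. Over all hotspots the medians were 201 and 240 bp, and in the flanks 221 and 256 bp. The interior median was thus above that of its library in replicate 1 and below it in replicate 2. The widest differed: 14 interior hotspots of replicate 1 (6.93%) were 1 kb wide or more, close to the 6.15% of all its hotspots. Replicate 2 had 3 of 100, all of them in Hoxa, against 6.38% of all its hotspots. In replicate 1 the share of wide hotspots in the interiors was thus near its background.

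**Figure D4:**
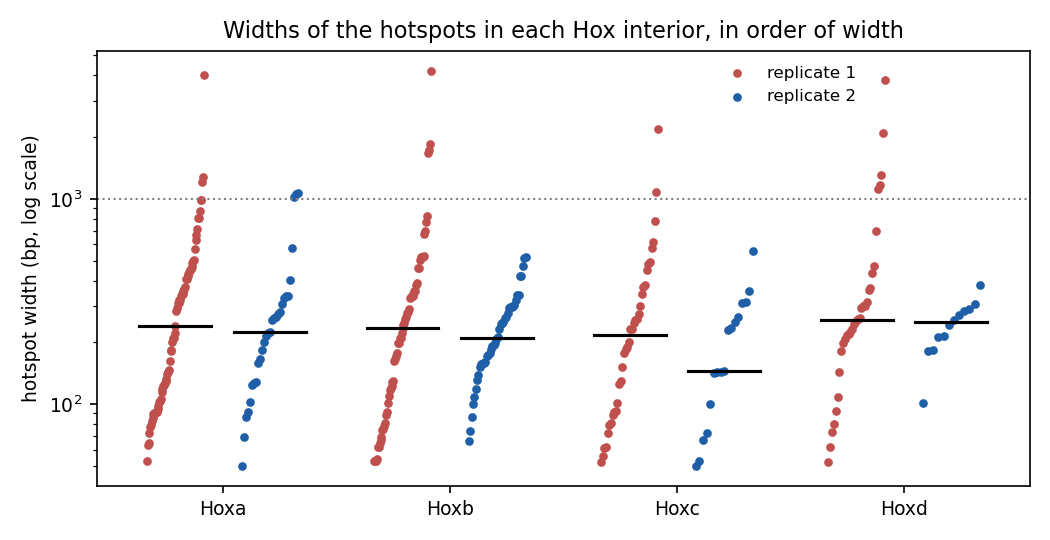
Each point is the width of 1 hotspot that overlaps a Hox interior, in order of width within its cluster and library, on a log axis; black bars are medians and the dotted line marks 1 kb. Replicate 1 (red) reaches 4216 bp, and replicate 2 (blue) ends at 1062 bp, with medians close together in Hoxa, Hoxb and Hoxd.

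The widest hotspot of each interior was a replicate 1 hotspot with narrower counterparts in replicate 2. In Hoxa it spanned 3988 bp over the whole Hoxa2 gene and the DNA downstream of it (chr6:52160905-52164892) and held 8 peaks, 2 of them shared, where replicate 2 had 4 hotspots of at most 1058 bp. In Hoxb it spanned 4216 bp (chr11:96261262-96265477), 8087 bp from the nearest Hoxb9 start, with 7 peaks of which 1 was shared. Replicate 2 had a single hotspot of 262 bp there. In Hoxd it spanned 3791 bp (chr2:74746766-74750556) over the 3′ end of Hoxd3 and part of the long noncoding RNA gene Haglr, with 9 peaks of which 1 was shared. A second Hoxd hotspot of 2085 bp at a Hoxd3 start (chr2:74735209-74737293) had no counterpart in replicate 2. In Hoxc it spanned 2199 bp over the Hoxc13 start (chr15:102919714-102921912), where replicate 2 had 554 bp. In the other clusters the widest replicate 2 hotspots were 521 bp near Hoxb2, 554 bp at Hoxc13 and 381 bp at the Hoxd3 site printed above. The strong shared sites sat in narrow hotspots in both libraries: 277 and 320 bp at Hoxb5, 302 and 313 bp at the Hoxc8 site and 263 and 381 bp at the Hoxd3 site.

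The flanks were balanced in sum, with 1393 peaks in each library, or 174 per Mb. Shared peaks there numbered 636, or 79.5 per Mb, against 33.6 per Mb over the chromosomes analysed. Single flanks were less even. The low-number flank of Hoxd, a gene desert known for limb and trunk enhancers, had 90 peaks in replicate 1 and 152 in replicate 2, a ratio of 0.592, and 58.9% of its replicate 1 peaks and 33.6% of its replicate 2 peaks were shared. The other 7 flanks had ratios from 0.938 to 1.17. The desert on the other side of Hoxd had 129 and 137 peaks.

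The replicate 1 excess of the interiors ran into the nearest flank DNA. Within 100 kb of the clusters, the 8 flanks together held 295 peaks in replicate 1 and 190 in replicate 2, a ratio of 1.55, and replicate 1 was higher in 7 of 8 flanks. The exception was the low-number flank of Hoxd, with 2 peaks against 9. From 100 to 200 kb the sums were 140 and 130, and from 300 kb to 1 Mb they were 818 and 938, a ratio of 0.872. Hoxc had the largest contrast of the nearest steps, with 30 peaks against 5 on its high-number side, and a further one at 300 to 400 kb, with 34 against 4.

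**Figure D5:**
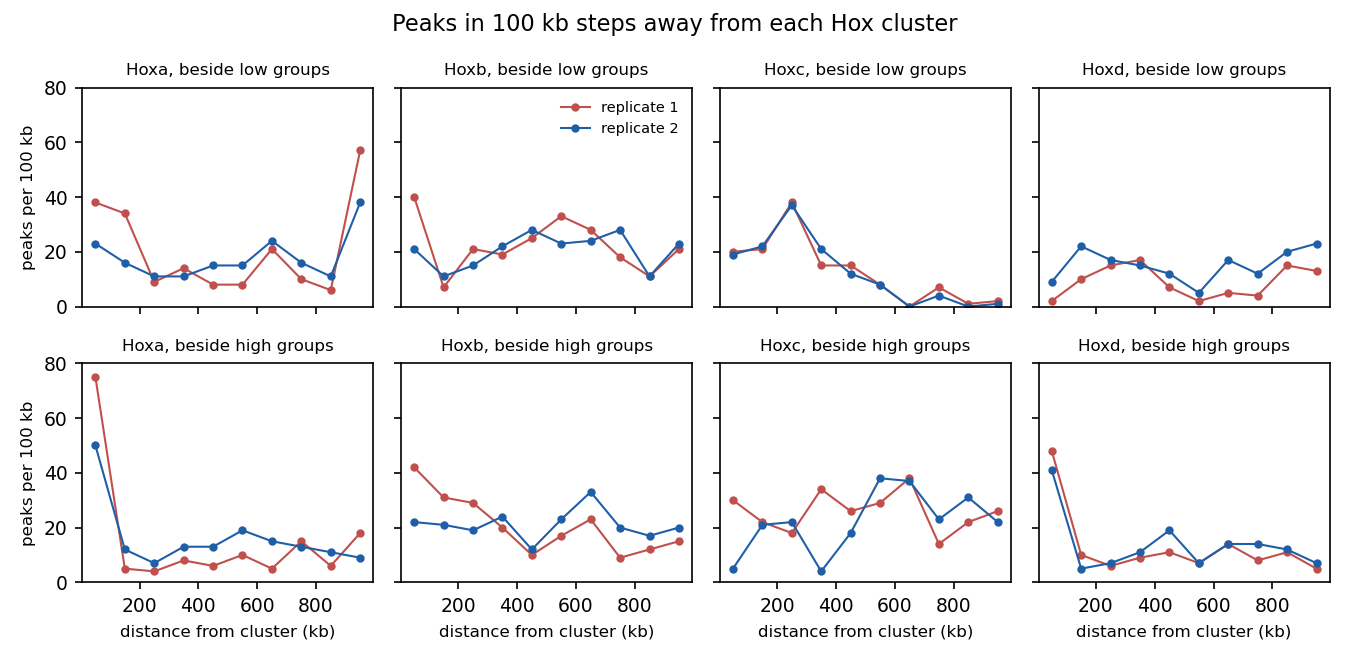
Lines show the number of peaks in each 100 kb step away from the cluster, for the low-number flanks (top) and high-number flanks (bottom) of the 4 clusters, in replicate 1 (red) and replicate 2 (blue). Replicate 1 is higher in the nearest step in 7 of the 8 flanks, and the lines run close together or cross farther out.

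In each flank the strongest shared peak lay at the promoter of a gene outside the Hox family. They stood at Hnrnpa2b1 and Hibadh beside Hoxa, at Cdk5rap3 and Ube2z beside Hoxb, at Cbx5 and Atf7 beside Hoxc and at Hnrnpa3 and Atf2 beside Hoxd. Each lay 192 bp or less from a start site, and the lowest rank among them was 98.4. Hnrnpa2b1 and Hnrnpa3 encode RNA-binding proteins, Cbx5 encodes the heterochromatin protein HP1 alpha, and Atf2 and Atf7 encode related transcription factors. The strongest distal shared peak of the Hoxa low-number flank, printed above, had ranks of 99.3 and 99.0 and was the highest distal one of all flanks. These peaks were picked by the sum of their ranks in both libraries, so that high ranks in both were part of the choice.

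Some of the widest flank hotspots lay at the Evx genes, the homeobox neighbours of Hoxa and Hoxd at the high-number end. Beside Evx1 a replicate 1 hotspot spanned 7001 bp (chr6:52309530-52316530) with 12 peaks, 5 of them shared, where replicate 2 had 13 hotspots of at most 1109 bp. Beside Evx2 the widest single hotspot was instead in replicate 2. It spanned 6859 bp (chr2:74653405-74660263), the seventh widest of its library. Replicate 1 had a hotspot of 4897 bp there and another of 5645 bp that reached only the edge of it. Peaks within 10 kb of Evx2 were still more numerous in replicate 1, at 44 against 35. The widest hotspot of any flank was a replicate 1 hotspot of 7305 bp (chr6:51167888-51175192) in the Hoxa low-number flank, 261130 bp from the nearest protein-coding start (Nfe2l3), in which 9 of 12 peaks were shared. Replicate 2 had 13 hotspots of at most 902 bp there. At Rarg, a retinoic acid receptor gene of the Hoxc high-number flank, the libraries had 4517 and 4235 bp. At Igf2bp1, beside Hoxb, they had 3527 and 2899 bp, at Kpnb1 on the other side 2161 and 2483 bp, and at Nfe2l2, beside Hoxd, 2766 and 3159 bp. In the low-number flank of Hoxc the widest were 2104 bp near Gpr84 in replicate 1 and 2445 bp at Itga5 in replicate 2. The longest stretch without a peak in either library was 111 kb in that same flank (chr15:103629171-103739711), while the interiors had stretches of at most 20.2 kb.

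None of the 6 microRNA genes of the clusters had a shared peak within 1 kb of its annotated hairpin start. The share over all microRNA genes is not given here, so this count cannot be called low. Mature sequences of the cluster microRNAs are shown because paralogous loci share a seed (bases 2 to 8, in capitals), while the peaks found at the loci differed. Sequences are from RefSeq on GRCm38.p6.
miR-10a-5p: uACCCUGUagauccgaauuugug
miR-10b-5p: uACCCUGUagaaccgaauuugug
miR-196a-5p: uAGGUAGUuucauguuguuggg
miR-196b-5p: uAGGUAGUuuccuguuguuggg
miR-615-3p: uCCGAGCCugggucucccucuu

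The loci of miR-196, which represses some Hox mRNAs, differed. In replicate 1, Mir196a-1 in Hoxb, at the end of the 4216 bp hotspot, had 4 peaks within 1 kb of its hairpin start. Mir196b in Hoxa had 2 such peaks in replicate 1, and both loci had none in replicate 2. The third locus, Mir196a-2 in Hoxc, had none in either library, as did Mir10b in Hoxd. Mir10a in Hoxb had 2 such peaks in replicate 1 and 1 in replicate 2. Mir615 in Hoxc had 3 in replicate 2 alone. Loci with the same seed thus had peaks in some clusters and none in others. None of these peaks was shared, and those of Mir196a-1 and Mir196b came from replicate 1 alone, the library with more interior peaks.

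Of 12 long noncoding RNA genes in and beside the clusters, 6 had a shared promoter peak: Hottip, Hotairm1, Hoxb3os, Hoxd3os1, Haglr and Gm53. The share over all long noncoding RNA genes is not given here, so this count cannot be called high or low. Hottip, next to Hoxa13, had 3 shared promoter peaks. Hotair, Halr1, Hoxaas2 and Hoxb5os had no promoter peak in either library. The Evx1 and Evx2 promoters both had shared peaks. Shared promoter peaks stood at all genes listed of the machinery that acts on Hox clusters: 23 of 23 Polycomb subunit genes, 11 of 11 Trithorax subunit genes and 9 of 9 genes of the TALE cofactors (the Pbx, Meis and Prep family that binds with Hox proteins). Among upstream regulators 11 of 15 had one, near the 64.2% of all protein-coding genes, Egr2, the 3 retinoic acid receptor genes and the Cyp26 genes among them. Cdx1 had no promoter peak in either library. Cdx2, a caudal activator of Hox genes, had 9 promoter peaks in replicate 1 and none in replicate 2, and Cdx4 had 4 in replicate 2 and none in replicate 1.

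Other homeobox clusters, measured by the same rule over their interiors, gave ratios of replicate 1 to replicate 2 peaks nearer to 1. The 3 Dlx pairs, which pattern the jaw, had 96 and 86 peaks (ratio 1.12), of which 49.0% of the replicate 1 peaks were shared (38.6 to 59.4). The 2 Irx clusters had 278 and 322 (0.863), with 42.8% shared (36.9 to 48.9). The Hox interiors, at 2.54 and 17.8% (13.4 to 23.0), lay outside these intervals in their shared percentage. This is not separate from their ratio, because fewer replicate 2 peaks can match only part of the replicate 1 peaks. Of the replicate 2 peaks, 45.2% were shared in the Hox interiors, 54.7% in the Dlx pairs and 36.3% in the Irx clusters. A low share was not confined to the Hox interiors. Dlx3-Dlx4 had 20 and 14 peaks (ratio 1.43) of which 3 were shared, a replicate 1 share of 15.0% that lies within the Hox interval. Dlx1-Dlx2 and Dlx5-Dlx6 had 56.8% and 59.0%. Hotspots covered 66.4% and 62.5% of the Dlx interiors, against 15.8% and 4.97% of the Hox interiors and 4.0% and 4.93% of the Irx interiors. The interiors differed greatly in length, at 63.5 kb for the Dlx pairs, 492 kb for Hox and 2194 kb for the Irx clusters. Coverage, ratios and shared percentages thus compare unlike stretches of DNA. All 6 Irx genes and 5 of 6 Dlx genes had a shared promoter peak. No test was made across these few regions.

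Marker genes of the face and of other cell types were set beside the tissue label. Shared promoter peaks stood at 9 of 10 face mesenchyme markers, 7 of 10 facial ectoderm markers, 10 of 10 hindbrain and neural tube markers, 6 of 10 limb and trunk markers and 2 of 10 blood and endothelium markers. Beside the 64.2% of all protein-coding genes, these counts do not single out the face, since the hindbrain and neural tube list was as fully open as that of face mesenchyme. Of the ectoderm markers, Krt5 and Krt14 lacked promoter peaks in both libraries. Among the blood and endothelium markers Gata1, Hba-a1, Spi1 and Csf1r had none in either. Peaks within 10 kb of the genes numbered 299 in replicate 1 and 249 in replicate 2 for face mesenchyme, 75 and 122 for facial ectoderm, 313 and 255 for hindbrain and neural tube, 215 and 137 for limb and trunk, and 114 and 88 for blood and endothelium. By difference in number, the marker genes furthest apart, picked after their values were seen, were Cdx2 (40 against 2), Isl1 (47 against 7), a gene of motor neurons and heart and hindlimb progenitors, and Tbx5 (35 against 9), a gene of forelimb and heart. Other markers leaned to replicate 2 with a ratio larger than that of Tbx5, from fewer peaks: Cdx4 (1 against 6), Krt14 (1 against 6) and Cdh1 (5 against 22). These marker values moved in the same direction as the replicate 1 excess in the Hox interiors for every list but facial ectoderm, and their part in it was not tested.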

How the data were processed

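DNase-seq peaks and hotspots of 2 libraries were analysed as deposited by the authors, 1 list of each kind per library, on build mm10 per the labels. Peaks carry a deposited whole-number score, called strength, of no stated scale. Hotspots carry a deposited −log10 q value with a ceiling of 100. No aligner, caller or depth is named (not given in the sources used here), so depth is unknown. Per the labels, reads of both libraries came from a HiSeq 2500 and a NextSeq 500, and replicate 2 had further reads from a HiSeq 2000.

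Chromosomes 1 to 19 and X were kept. Start sites came from the basic GENCODE M21 annotation and sequence from RefSeq GRCm38.p6, the same build as mm10. Peaks were placed by their centre, and hotspots by an overlap of 1 bp or more. An overlap of 75 bp made a peak shared. Intervals are exact binomial (scipy 1.17.1). Analysis used Python 3.11.15, pandas 2.3.3 and pysam 0.24.0, and counting was tested on simulated data.

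The members and gene lists were chosen with earlier results of these data known, and the motif AGGNGGCG, the rank classes and the 100 kb windows were chosen after values were seen. The genes named are the Hox genes, those with a shared promoter peak in full, the strongest and widest elements of each cluster and flank, and listed genes without promoter peaks. Some items are not reported here. Alternatives covered the overlap, the strongest 50000 peaks, the promoter window, the bounds of the regions, the hotspot threshold and each library alone.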

Additional observations from a re-analysis of the deposited data

How the results depend on the processing

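Of 31 alternative values for 7 results, 9 moved and 0 reversed direction. A reversal could be scored only for the ratio of replicate 1 to replicate 2 interior peaks. For densities, coverage and widths the yardstick was the SD of both libraries, so these labels say little about stability. Flank density had an SD of 0 and moved at any change. Coverage had an SD of 7.65 and counted as unmoved when it fell from 10.4% to 4.64% at a −log10 q of 10 or more. The remaining 22 stayed within 1.5 times the count or within the spread of the value, but 8 of these are single-library values of a mean over both libraries, which lie within their own SD by construction and show no stability. Requiring 90% overlap left 6 Hox genes with a shared promoter peak and a shared percentage of 7.20% for replicate 1 interior peaks, while an overlap of 1 bp gave 23.1%. With the 50000 strongest peaks of each library, interior density was 142 per Mb, flank density 51.2 per Mb and the shared percentage 29.0%, and the ratio of replicate 1 to replicate 2 interior peaks was 2.50. Flank density was 190.0 per Mb over 500 kb flanks and 167 per Mb where the interiors were extended by 10 kb. Hotspots with a −log10 q of 10 or more had a median width of 388 bp. Some directions were set by the settings: fewer peaks can only lower a density, a stricter overlap can only lower shared counts and a looser one can only raise them. The cause of the other shifts was not tested. Leaving out replicate 1 or 2 gave 21 and 22 Hox genes, 211 and 537 interior peaks per Mb, 174 flank peaks per Mb in each, coverage of 4.97% and 15.8% and median widths of 224 and 237 bp. The comprehensive annotation, an alternative chosen after seeing the data, gave 16 Hox genes, Hoxa7 included. No paired analysis was possible because the series has 1 group. Unknown depth limits any statement that a site is closed.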
